A study of Mus musculus with 56 samples.

Results

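The nuclear receptor corepressor NCOR1 is a platform on which a corepressor complex assembles. At the mRNA level 8 genes were followed in mouse liver. Ncor1, Hdac3, Tbl1x, Tbl1xr1 and Gps2 code for the complex, and Hdac1, Hdac2 and Nrip1 for deacetylases and a corepressor outside its core. They were picked by name from the 23813 named genes of the deposited expression table, with the first listed transcript standing for each gene, and all 8 of 8 passed the filter on low values. Levels are RPKM, read numbers divided by transcript length and by the total of uniquely aligned reads, so that they can be compared between genes.

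In the classical model, the thyroid hormone receptor (TR) without hormone stays on its target enhancers and binds NCOR1 through the receptor interaction domains of NCOR1. The study reported HDAC3 and NCOR1 at only some TR binding sites in hypothyroid liver, and low TR occupancy at others. The platform holds the histone deacetylase HDAC3, which it also activates, together with GPS2 and the WD40 proteins TBL1X and TBL1XR1, which help to dock the complex on chromatin and to exchange corepressors for coactivators. HDAC1 and HDAC2 are the paired deacetylases of other corepressor complexes, and NRIP1 (RIP140) is a corepressor that binds receptors when hormone is present.

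Poly(A) RNA from livers of 12 male mice was sequenced, 4 in each of 3 groups. All mice were fed a low iodine diet with 0.15% propylthiouracil (PTU), a blocker of thyroid hormone synthesis, for 16 days. Hypothyroid WT mice received no hormone, hyperthyroid WT mice were injected with 5 μg triiodothyronine (T3) during the last 4 to 6 days, and L-NCOR1ΔID mice, which produce in the liver a mutant NCOR1 without the TR interaction domains, were studied in the hypothyroid state only. The L-NCOR1ΔID line is kept on a mixed background that includes C57BL/6, so that strain differences from the WT mice cannot be told apart from the mutation if the WT mice were not littermates, which the sources used here do not state. An animal list of the study, which covers more mice than were sequenced, gives a lower mean age for L-NCOR1ΔID than for WT mice with overlapping SDs, and the ages of the sequenced mice are not given in the sources used here, so that age and genotype cannot be told apart. The study has 56 samples, of which the 12 RNA libraries and a list of acetylated chromatin regions were used. Depth, derived from the steps between the lowest values, was 29250000 to 38050000 reads in hypothyroid WT, 21300000 to 26150000 reads in hyperthyroid WT and 38200000 to 42650000 reads in L-NCOR1ΔID libraries, so that the hyperthyroid group was the shallowest. Among the 8 genes the fewest reads per kilobase were 31.6, for Hdac1, and the most were 709, for Hdac3. Thrsp, a classical T3 target, checked the hormone labels with means of 322 ± 128, 1597 ± 652 and 844 ± 294 RPKM (SD, n = 4) in hypothyroid WT, hyperthyroid WT and L-NCOR1ΔID mice.

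In hypothyroid WT liver the deacetylase and its platform were the highest of the 8, Hdac3 with 17.8 ± 0.553 RPKM and Ncor1 with 14.7 ± 0.665 RPKM (SD, n = 4 here and below). Tbl1x followed with 11.6 ± 1.03 RPKM, at 2.81 ± 0.415 times the level of its paralogue Tbl1xr1 in the same library. Hdac2 and Gps2 had 8.74 ± 0.578 and 8.03 ± 1.03 RPKM, which lie within their spread of each other, as do the lowest members, Hdac1 with 2.02 ± 0.226 RPKM and Nrip1 with 2.00 ± 0.255 RPKM. The values of each mouse are shown in the plot of mRNA levels by group.

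**Figure D1:**
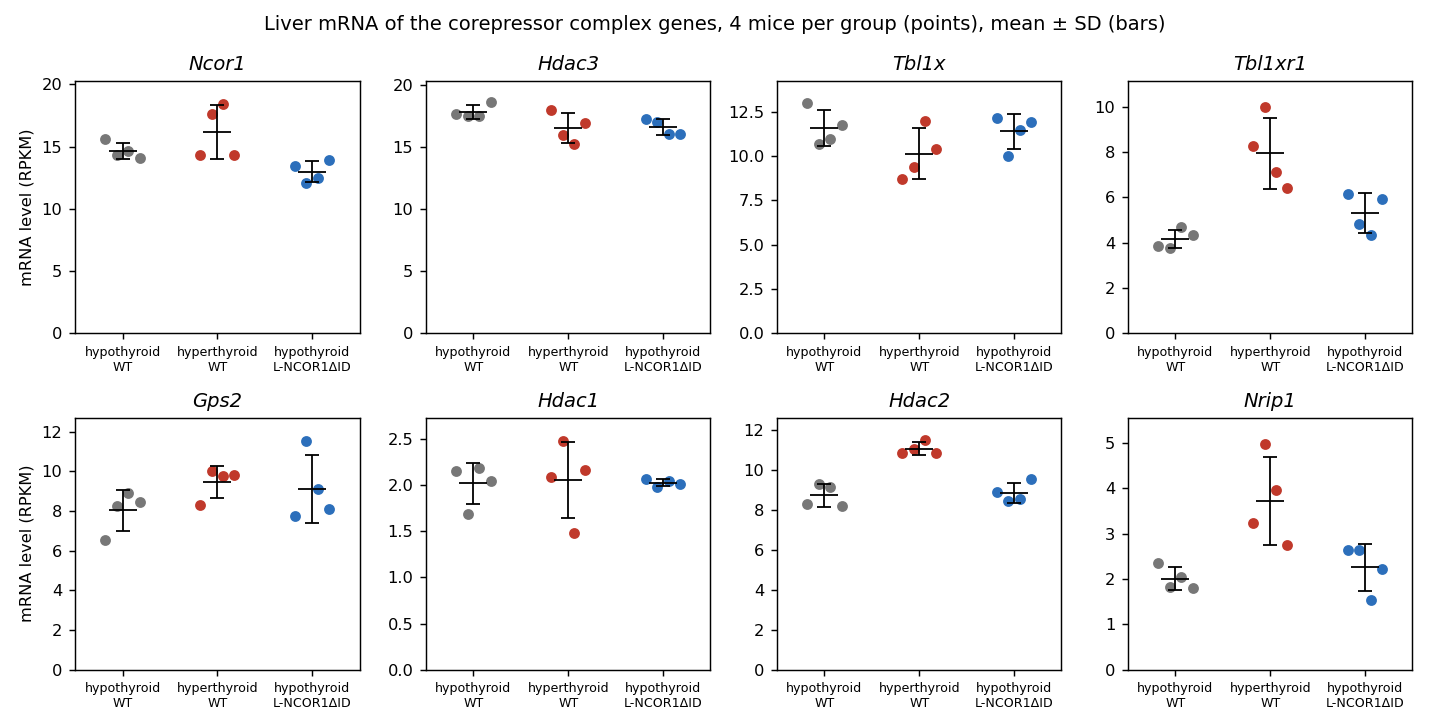
The y axis gives the mRNA level in RPKM and the x axis the 3 groups, with 1 point per mouse and bars for the mean ± SD. Tbl1xr1, Hdac2 and Nrip1 lie higher in all 4 hyperthyroid WT mice than in any hypothyroid WT mouse, whereas Hdac1 overlaps in all groups.

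All 8 genes begin inside a region of chromatin acetylated on H3K9 or H3K27 in WT liver, as do 86.0% of the 12006 tested genes with an annotated start. The regions, which the authors merged over both marks and both hormone states, spanned 2.81 kb at Hdac2 to 7.71 kb at Ncor1, beside a median of 3.92 kb for all starts in a region. There were 9 regions overlapping Nrip1 (86.4 kb long), 8 Tbl1xr1 (139.9 kb), 7 Ncor1 (142.1 kb) and 4 Tbl1x (152.0 kb). The shorter genes Gps2 (2.70 kb), Hdac1 (26.6 kb) and Hdac2 (27.3 kb) had 1 each and Hdac3 (19.1 kb) had 2. Among the longer genes the number did not increase with length. Since the list holds no read numbers, acetylation in single mice was not analysed here. On mm9, Ncor1 lies at chr11:62129928-62272043 (minus strand), Tbl1x at chrX:74756352-74908322 (plus), Tbl1xr1 at chr3:21975574-22115516 (plus), Gps2 at chr11:69727390-69730093 (plus), Hdac1 at chr4:129193348-129219957 (minus), Hdac2 at chr10:36694350-36721695 (plus) and Nrip1 at chr16:76287645-76374072 (minus).

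The 250 bases before the annotated start are shown for the 3 genes that rose after T3 and for the paralogues of 2 of them, shown for comparison. None of these 5 windows overlaps an annotated exon. They were read from mm9, on the strand of the gene, at chrX:74756102-74756351 for Tbl1x, chr3:21975324-21975573 for Tbl1xr1, chr4:129219958-129220207 for Hdac1, chr10:36694100-36694349 for Hdac2 and chr16:76374073-76374322 for Nrip1. Capitals mark matches, on either strand, to the nuclear receptor motif AGGTCA, the GC box GGGCGG, the CCAAT box CCAAT, the ETS motif CCGGAAG and the CRE TGACGTCA.
Tbl1x: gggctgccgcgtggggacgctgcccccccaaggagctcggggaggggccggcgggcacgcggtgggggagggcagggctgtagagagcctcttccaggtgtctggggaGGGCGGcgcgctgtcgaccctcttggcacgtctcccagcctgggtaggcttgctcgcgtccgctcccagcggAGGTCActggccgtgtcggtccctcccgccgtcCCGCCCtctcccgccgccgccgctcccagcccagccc
Tbl1xr1: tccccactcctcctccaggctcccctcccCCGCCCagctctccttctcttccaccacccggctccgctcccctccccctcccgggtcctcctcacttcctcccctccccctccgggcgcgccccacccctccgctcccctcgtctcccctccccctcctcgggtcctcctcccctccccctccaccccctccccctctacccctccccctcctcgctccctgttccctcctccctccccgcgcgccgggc
Hdac1: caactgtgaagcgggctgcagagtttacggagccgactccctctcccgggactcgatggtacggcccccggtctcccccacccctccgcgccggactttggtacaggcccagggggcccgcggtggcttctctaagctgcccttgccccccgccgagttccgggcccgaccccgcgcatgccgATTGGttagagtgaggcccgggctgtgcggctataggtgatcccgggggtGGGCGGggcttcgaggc
Hdac2: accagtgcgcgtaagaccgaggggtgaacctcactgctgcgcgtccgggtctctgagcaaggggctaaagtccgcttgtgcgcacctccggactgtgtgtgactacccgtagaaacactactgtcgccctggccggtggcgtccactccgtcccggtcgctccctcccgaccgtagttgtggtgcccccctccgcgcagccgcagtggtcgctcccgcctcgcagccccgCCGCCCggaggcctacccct
Nrip1: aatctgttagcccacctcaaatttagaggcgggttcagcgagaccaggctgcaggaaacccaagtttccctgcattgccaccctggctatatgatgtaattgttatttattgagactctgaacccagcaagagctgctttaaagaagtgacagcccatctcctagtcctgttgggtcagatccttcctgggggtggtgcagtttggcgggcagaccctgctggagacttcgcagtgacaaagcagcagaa
The 2 paralogues Tbl1x and Tbl1xr1 both have GC-rich windows, with 76.4% and 76.0% G or C beside a median of 58.4% over 12006 promoters, and Nrip1 has 51.2%. Tbl1x holds 2 GC boxes and 1 AGGTCA, which 11.3% of promoters share, while Tbl1xr1, Hdac1 and Hdac2 hold 1 GC box each, as do 54.1% of promoters with 1 or more. Hdac1 also holds 1 CCAAT box, found in 35.4%. No window of the 5 holds CCGGAAG (12.2% of promoters) or TGACGTCA (2.44%), and that of Nrip1 has none of the 5 motifs. The closest match to 2 AGGTCA motifs spaced by 4 bases (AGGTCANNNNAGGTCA, both strands), the arrangement preferred by TR, within 1000 bases of the start had 9 of 12 bases in Tbl1x, Tbl1xr1, Hdac1, Ncor1 and Gps2, and 8 of 12 in Hdac2 and Nrip1. A match of 9 or better was present at 80.0% of all starts.

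The first comparison asked how T3 changed the mRNA of the 8 genes in WT liver. Of the 8 genes 3 rose, Tbl1xr1 by 1.91-fold, Nrip1 by 1.86-fold and Hdac2 by 1.27-fold of the mean, and 0 fell (limma, adjusted p below 0.01 over all genes). The platform Ncor1 and the core deacetylase Hdac3 did not pass the test. As background, 24.5% of 13941 genes tested rose, 7.71% fell and 35.8% had hyperthyroid mice above all hypothyroid mice as these 3 did, and the median log2 fold change was 0.19 over the 8 genes and 0.23 over all genes. This general shift in RPKM was taken out by scaling each library by the median of its gene ratios, after which 12.2% of genes rose and 14% fell with a median of 0.01. On that scale 1 of the 8 genes, Tbl1xr1, rose and had no overlap between groups (19.8% of all genes in that direction), and 1, Tbl1x, fell. For the 8 genes the fold change after T3 is given below on both scales.

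Tbl1xr1 stood at 3.87, 3.78, 4.67 and 4.33 RPKM in the 4 hypothyroid WT mice, at 8.26, 10.01, 7.11 and 6.41 RPKM in the hyperthyroid WT mice and at 6.17, 4.84, 4.34 and 5.93 RPKM in the L-NCOR1ΔID mice. Every hyperthyroid mouse lay above all mice of the other groups, while the hypothyroid groups overlapped. The rise after T3 was 0.90 ± 0.14 on the log2 scale (SE, limma, adjusted p = 0.00089), with means of 7.95 ± 1.57 against 4.16 ± 0.414 RPKM. It remained past the threshold after scaling, at 0.67 ± 0.16 (adjusted p = 0.0084), and in 8 of 8 fits without 1 library.

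Its paralogue Tbl1x did not pass the test on RPKM as deposited. Tbl1x, which is X-linked and codes for a protein with the same dock-and-exchange role, had 13.0, 10.7, 10.96 and 11.8 RPKM in hypothyroid WT, 8.68, 9.38, 12.002 and 10.4 RPKM in hyperthyroid WT and 12.2, 9.99, 11.5 and 11.9 RPKM in L-NCOR1ΔID mice. The groups overlapped. The log2 fold change after T3 was -0.20 ± 0.11 (limma adjusted p = 0.16) and, after scaling, -0.44 ± 0.094 (adjusted p = 0.0057), where the groups no longer overlapped, as for 21.7% of all genes in that direction.

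A ratio of 2 genes within a library does not depend on how libraries are scaled. Tbl1x to Tbl1xr1 was 3.35, 2.82, 2.35 and 2.72 in hypothyroid WT, 1.05, 0.937, 1.69 and 1.62 in hyperthyroid WT and 1.97, 2.07, 2.65 and 2.01 in L-NCOR1ΔID mice. In the absence of T3 the livers thus held more Tbl1x than Tbl1xr1 mRNA per length in 8 of 8 mice. Among hyperthyroid mice Tbl1x was the lower of the pair only in replicate 2. The ratio in hyperthyroid mice, at 0.937 to 1.69, did not overlap with either hypothyroid group. The log2 ratio was lower after T3 by 1.10 ± 0.24 than in hypothyroid WT mice, with a two-sided exact permutation p = 0.0286, the smallest that 4 against 4 mice allow, and p = 0.143 after adjustment over the 15 ratio comparisons. Against L-NCOR1ΔID mice it was lower by 0.74 ± 0.24 (exact permutation p = 0.0286, adjusted p = 0.143). L-NCOR1ΔID and hypothyroid WT mice overlapped in this ratio, with a difference of -0.36 ± 0.14 (exact permutation p = 0.0571, adjusted p = 0.171).

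Nrip1 had 2.35, 1.82, 2.05 and 1.80 RPKM in hypothyroid WT, 3.225, 4.97, 3.96 and 2.75 RPKM in hyperthyroid WT and 2.65, 2.63, 1.535 and 2.22 RPKM in L-NCOR1ΔID mice. The hyperthyroid mice spread widely but lay above all others. The log2 rise was 0.84 ± 0.18 (limma adjusted p = 0.0046), and after scaling it was 0.61 ± 0.19 and missed the threshold (adjusted p = 0.0276), as it did with no filter on low values (adjusted p = 0.0201), with the replicate block (adjusted p = 0.0119) and without 4 of the 8 libraries, with adjusted p of up to 0.0155. Those 4 were hypothyroid WT replicates 2, 3 and 4 and hyperthyroid WT replicate 3. The ratio of Nrip1 to Ncor1 rose from 0.136 ± 0.0111 to 0.228 ± 0.0383 without overlap, a log2 difference of 0.70 ± 0.13 (exact permutation p = 0.0286, adjusted p = 0.143).

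Hdac2 and Hdac1 code for the class I deacetylases outside the core. Hdac2 had 8.30, 9.32, 9.16 and 8.19 RPKM in hypothyroid WT, 10.9, 11.1, 11.5 and 10.9 RPKM in hyperthyroid WT and 8.91, 8.44, 8.54 and 9.57 RPKM in L-NCOR1ΔID mice. The hyperthyroid mice were closely grouped, with a coefficient of variation of 2.89%, and lay above all others. The log2 rise of 0.34 ± 0.071 (limma adjusted p = 0.0040) stood beside a median of 0.23 over all genes, and after scaling 0.10 ± 0.066 was left (adjusted p = 0.242). It also missed the threshold without hypothyroid WT replicate 1 or 4 or hyperthyroid WT replicate 3, with adjusted p of up to 0.0137. Hdac1 had 2.15, 1.69, 2.19 and 2.04 RPKM, 2.09, 2.48, 1.48 and 2.17 RPKM, and 2.065, 1.98, 2.04 and 2.01 RPKM in the same order of groups, which overlapped. Its log2 fold change after T3 was 0.01, with a 95% interval from -0.36 to 0.38 (adjusted p = 0.965), and -0.22 after scaling. Hdac1 was at 0.232 ± 0.0347 times Hdac2 in hypothyroid and 0.186 ± 0.0406 times in hyperthyroid WT mice (exact permutation p = 0.143, adjusted p = 0.286).

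Ncor1 itself had 15.6, 14.3, 14.6 and 14.1 RPKM in hypothyroid WT and 14.3, 17.6, 18.5 and 14.3 RPKM in hyperthyroid WT mice, with the latter split between 2 mice at the hypothyroid level and 2 above it. The log2 fold change was 0.13 with a 95% interval from -0.09 to 0.35 (limma adjusted p = 0.283), and -0.11 after scaling. Hdac3 had 17.7, 17.5, 17.5 and 18.6 RPKM against 17.9, 15.9, 15.2 and 17.0 RPKM, overlapping groups with a log2 fold change of -0.11 (interval -0.27 to 0.05, adjusted p = 0.211). After scaling the log2 fold change of Hdac3, -0.35 ± 0.085, lay at the threshold without passing it (adjusted p = 0.010). On that scale hyperthyroid mice lay below all hypothyroid WT mice for 2 of 8 genes, Hdac3 and Tbl1x, and for 21.7% of all genes. Gps2, an inhibitor of signalling kinases that bridges the platform and TBL1X, had 6.54, 8.23, 8.89 and 8.47 RPKM against 8.285, 10.002, 9.74 and 9.79 RPKM. These groups overlapped, and the log2 fold change was 0.24 (interval -0.01 to 0.49, adjusted p = 0.101) and 0.00 after scaling. The ratios of Hdac3 and of Gps2 to Ncor1 differed between hyperthyroid and hypothyroid WT mice by -0.24 ± 0.15 and 0.10 ± 0.15 on the log2 scale, with overlap (exact permutation p = 0.229 and 0.629, adjusted p = 0.286 and 0.673).

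**Figure D2:**
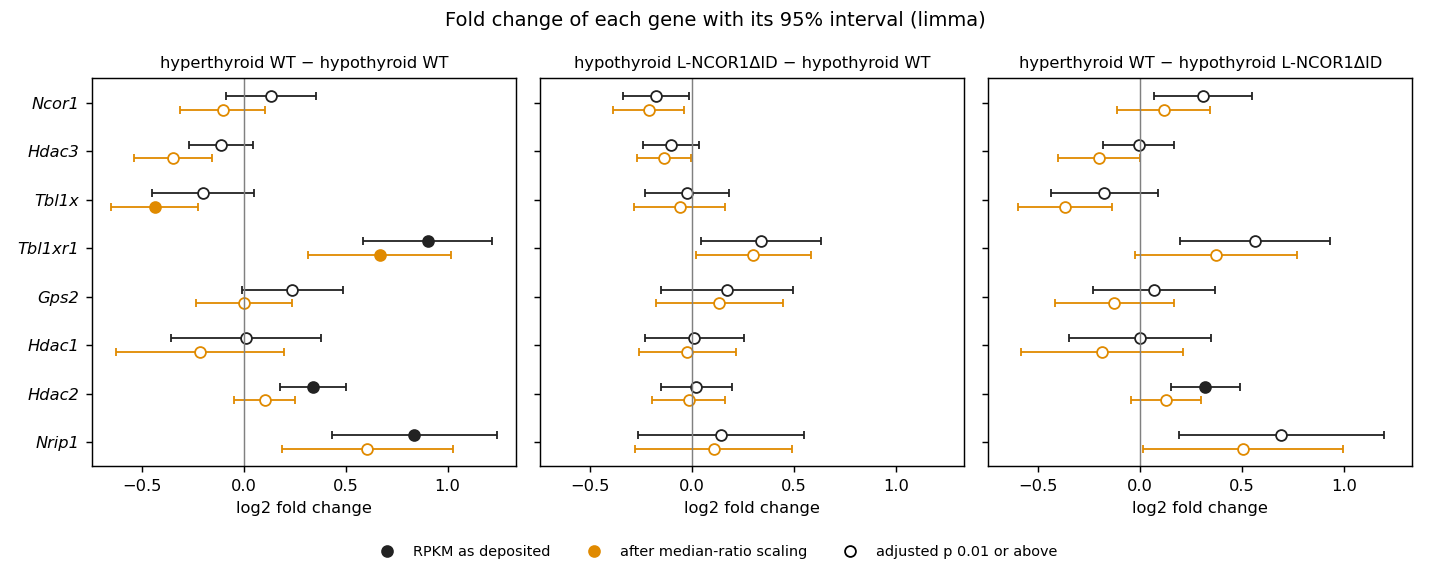
The x axis gives the log2 fold change of each gene with its 95% interval from limma in 3 comparisons, from RPKM as deposited and after median-ratio scaling, and filled points have an adjusted p below 0.01. After T3 the intervals of all 8 genes shift to lower values with scaling, and Tbl1xr1 is past the threshold on both scales.

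Transcripts of other liver cells moved with the hormone as well. All 4 Kupffer cell markers analysed (Clec4f, Adgre1, Vsig4 and Csf1r) rose. Cd68 was planned as a further Kupffer cell marker and is not among these 4. Their summed level was 28.2 to 39.0 RPKM in hypothyroid WT, 73.6 to 115 RPKM in hyperthyroid WT and 29.2 to 48.1 RPKM in L-NCOR1ΔID mice. Of 5 endothelial markers 2 rose (sums of 36.8 to 54.6 against 54.6 to 64.6 RPKM), and of 5 stellate cell markers 2 rose (43.9 to 61.5 against 72.5 to 82.2 RPKM). Of 4 lymphocyte markers 1 rose, Ptprc, while Cd3e, Cd79a and Ccl5 missed the threshold (sums of 1.85 to 4.56 against 3.83 to 6.79 RPKM). Of 4 cholangiocyte markers 1 rose and 1 fell (2.33 to 3.09 against 2.02 to 4.81 RPKM). Of the 5 hepatocyte markers 2 fell, Alb and Ttr, and 1 rose, Hnf4a, with sums of 36601 to 48197 against 18899 to 27106 RPKM, so that hepatocyte transcripts dominated every library. After scaling all 4 Kupffer cell markers rose still, beside 12.2% of all genes, while 1 endothelial, 0 stellate cell, 1 lymphocyte and 0 cholangiocyte markers rose, 1 cholangiocyte marker fell, and of the hepatocyte markers Ttr fell and Alb and Hnf4a lost their calls. Their part in the results for the 8 genes was not tested, and in whole liver a change in the number of cells of a type cannot be told apart from a change in RNA per cell.

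The second comparison asked whether loss of the TR interaction domains of NCOR1 changed the mRNA of the 8 genes in the absence of T3. By limma 0 of 8 genes passed the threshold, beside 0.725% of 13790 genes that rose and 0.544% that fell. At an unadjusted p below 0.05 there were 2 of 8, Ncor1 and Tbl1xr1, beside 20.5% of all genes. The median log2 fold change was 0.02 over the 8 genes and 0.03 over all genes, and scaling left 0 of 8 past the threshold, beside 0.689% and 0.602% of all genes. This comparison shares the hypothyroid WT mice with the first. Of the markers of the 6 cell types named above 0 passed in L-NCOR1ΔID mice, although the summed stellate cell markers, at 56.9 to 90.8 RPKM, reached above the hypothyroid WT range. Groups failed to overlap for 4 markers, chosen here after their values were seen: the means of endothelial Lyve1 were 5.08 ± 2.60 against 1.24 ± 0.340 RPKM (limma adjusted p = 0.0422), those of stellate cell Col1a1 2.90 ± 2.35 against 0.507 ± 0.187 RPKM (adjusted p = 0.0705), those of the T cell gene Cd3e 0.292 ± 0.109 against 1.60 ± 0.770 RPKM (adjusted p = 0.0273), and those of hepatocyte Alb 22674 ± 2152 against 31804 ± 4200 RPKM (adjusted p = 0.394). Cd3e and Alb were the lower ones, without overlap as for 5.36% of all genes in that direction. Lyve1 and Col1a1 were the higher ones, and the share of all genes in that direction is not given here. The part of these markers in the values of the 8 genes was not tested.

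Ncor1, the mutated gene, had 13.4, 12.1, 12.4 and 13.9 RPKM in L-NCOR1ΔID mice, all below the 14.1 to 15.6 RPKM of hypothyroid WT mice. The log2 fold change was -0.18, with a 95% interval from -0.34 to -0.02 (limma adjusted p = 0.204). Hdac3 had 17.2, 17.0, 16.1 and 16.03 RPKM, again with no overlap, at a log2 fold change of -0.10 (interval -0.24 to 0.03, adjusted p = 0.377). Groups failed to overlap for these 2 of 8 genes, both lower in L-NCOR1ΔID mice, and for 5.36% of all genes in that direction. For Ncor1 the value is that of a whole transcript, so that loss of the exons deleted in the mutant cannot be told apart from less mRNA. Another listed Ncor1 transcript, NM_177229, did overlap, at 3.49 to 4.12 RPKM in hypothyroid WT and 3.44 to 4.79 RPKM in L-NCOR1ΔID mice. Tbl1xr1 had a log2 fold change of 0.34 (interval 0.04 to 0.63, limma adjusted p = 0.187) with overlapping groups.

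The remaining 5 genes overlapped as well. Gps2, at 7.72, 11.5, 9.09 and 8.11 RPKM, had a log2 fold change of 0.17 (limma adjusted p = 0.541) and Nrip1 one of 0.14 (adjusted p = 0.698). Their 95% intervals, from -0.15 to 0.49 and from -0.26 to 0.55, leave room for changes of the size seen for Hdac2 after T3. The intervals were narrower for Tbl1x (-0.23 to 0.18), Hdac1 (-0.23 to 0.26) and Hdac2 (-0.16 to 0.19).

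The table lists 3 transcripts of Ncor1 and 1 of each other member. NM_001252313, which stands for the gene above, and NM_011308 had nearly equal values in every library (ratios of 1.004 to 1.013). The third, NM_177229, had 4.12, 3.77, 4.11 and 3.49 RPKM in hypothyroid WT, 3.91, 5.15, 5.47 and 4.04 RPKM in hyperthyroid WT and 4.27, 3.44, 3.625 and 4.79 RPKM in L-NCOR1ΔID mice. Relative to NM_001252313 in the same library it was at 0.264 ± 0.014 in hypothyroid WT and 0.310 ± 0.0272 in L-NCOR1ΔID mice, without overlap (difference of 0.22 ± 0.071 on the log2 scale, exact permutation p = 0.0286, adjusted p = 0.171 over 6 comparisons). Hyperthyroid WT mice lay between them at 0.286 ± 0.0104 and overlapped with both. Values are per transcript and not per exon, so the deleted exons themselves were not examined.

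**Figure D3:**
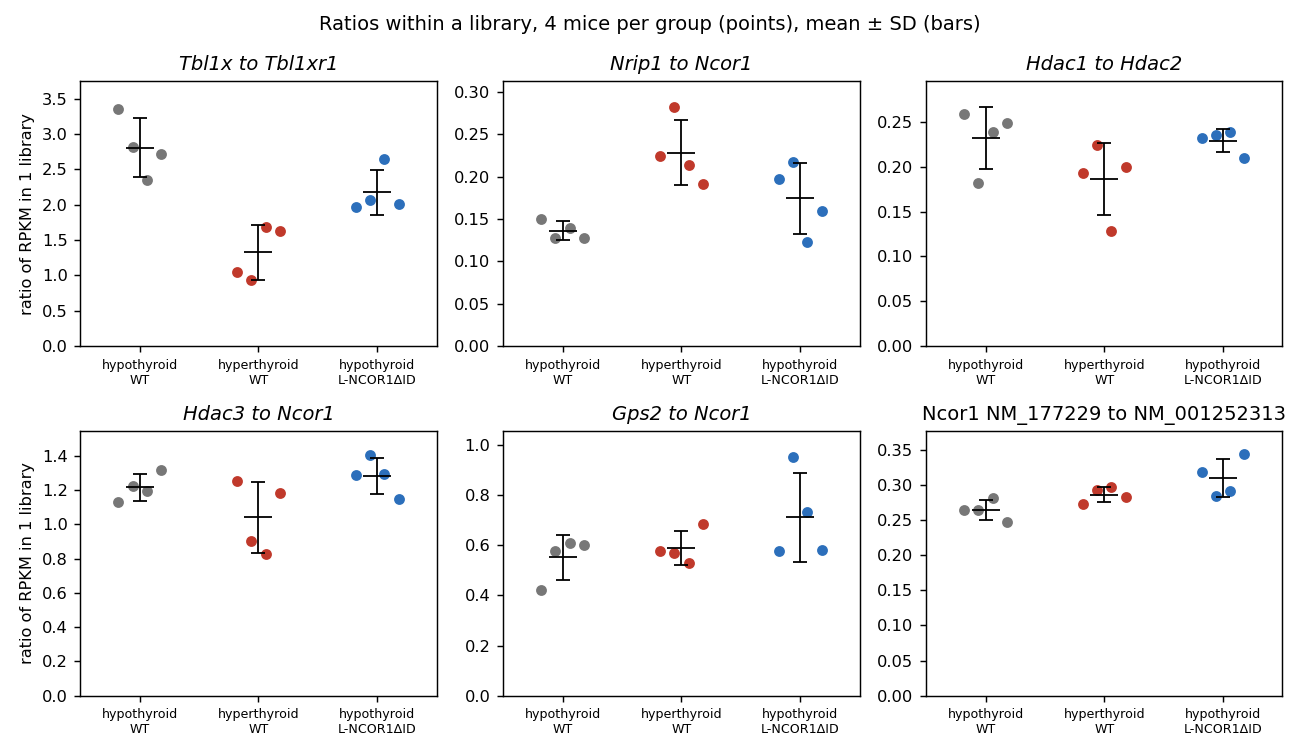
The y axes give the ratio of the RPKM of 2 genes, or of 2 Ncor1 transcripts, in 1 library, with 1 point per mouse, bars for the mean ± SD and the 3 groups on the x axis. Tbl1x to Tbl1xr1 is 0.937 to 1.69 in hyperthyroid WT mice and 1.97 to 3.35 in the hypothyroid mice of both genotypes.

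The third comparison set hyperthyroid WT directly against hypothyroid L-NCOR1ΔID mice and is the test of whether hormone and mutation gave different levels. Only Hdac2 of the 8 genes passed the threshold, with 11.1 ± 0.320 against 8.86 ± 0.512 RPKM, a log2 difference of 0.32 ± 0.075 (limma adjusted p = 0.0096), beside 15.5% of 14017 genes that were higher and 5.7% that were lower. After scaling, where 7.51% and 9.19% of all genes passed and 0 of 8 members, the Hdac2 difference was 0.13 ± 0.076 (adjusted p = 0.237), and it was lost in 7 of 8 fits without 1 library (adjusted p of up to 0.0338), all but that without L-NCOR1ΔID replicate 4. Tbl1xr1 (0.56 ± 0.16, adjusted p = 0.0238), Nrip1 (0.69 ± 0.22, adjusted p = 0.0353) and Ncor1 (0.31 ± 0.11, adjusted p = 0.0457) were also higher in every hyperthyroid mouse but missed the threshold. Groups failed to overlap for these 4 of 8 genes and for 28.7% of all genes in that direction, and after scaling for 0 of 8 beside 16.3%. For Ncor1 the limit set by the exons deleted in the mutant applies here too. The difference was -0.01 for Hdac3, -0.18 for Tbl1x, 0.07 for Gps2 and 0.00 for Hdac1, with adjusted p of 0.255 or more. After scaling every hyperthyroid mouse lay below all L-NCOR1ΔID mice for 2 of 8 genes, Tbl1x (-0.37 ± 0.10, limma adjusted p = 0.0229) and Hdac3 (-0.20 ± 0.088, adjusted p = 0.112), and for 17.1% of all genes in that direction. In this comparison 3 of 4 Kupffer cell markers were higher in hyperthyroid mice, 1 of 4 after scaling. Cd3e, endothelial Clec4g and Hnf4a were higher as well and Ttr lower, of which Cd3e and Ttr kept their calls after scaling, and the part of these markers in the differences was not tested.

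Other corepressor complexes share HDAC1 and HDAC2 or compete for the same receptors, and their genes were read from the same fits. For the lists here and below, 24.5% of all genes rose and 7.71% fell after T3, and 12.2% and 14% after scaling. Of 9 other corepressors and NCoR partners 5 rose and 0 fell, with a median log2 fold change of 0.46, and 2 rose after scaling, Kdm4a and Hr. Hr was low in both groups, with 0.0312 RPKM in hypothyroid and 0.626 RPKM in hyperthyroid WT mice (log2 rise 2.46, and 2.33 after scaling). It passed the filter on low values only through the hyperthyroid mice, so the filter itself favoured a rise. No conclusion is drawn from its call, which the counts and the median of this list include. Kdm4a, a histone demethylase that associates with NCOR1, increased from 5.85 to 11.3 RPKM (log2 rise 0.92 ± 0.15, limma adjusted p = 0.00095) and Spen, a platform of Notch target repression, from 3.54 to 5.16 RPKM (0.54 ± 0.11, adjusted p = 0.0029), of which Kdm4a kept its call after scaling (0.68 ± 0.13) and Spen did not (0.30 ± 0.094, adjusted p = 0.03). Ctbp1, a corepressor that binds short peptide motifs, increased from 16.9 to 22.9 RPKM (0.43 ± 0.065, adjusted p = 0.00069) and missed the threshold after scaling (0.20 ± 0.051, adjusted p = 0.0141).

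Of the 9 genes of the NuRD complex, which couples HDAC1 and HDAC2 to a chromatin remodeler, 5 rose and 0 fell after T3, and after scaling 1 rose and 2 fell. The remodeler Chd3 increased from 10.9 to 46.3 RPKM (log2 rise 2.11 ± 0.21, limma adjusted p = 7.95e-05), and Gatad2a and Gatad2b rose by 0.60 ± 0.11 and 0.40 ± 0.097 (adjusted p = 0.0016 and 0.0085), neither of which passed after scaling (0.36 and 0.16). Of 5 CoREST complex genes tested 3 rose, Rcor1, the scaffold (0.91 ± 0.13, adjusted p = 0.00055), Hmg20b (0.49 ± 0.087, adjusted p = 0.0017) and the demethylase Kdm1a (0.43 ± 0.087, adjusted p = 0.0033), and after scaling Rcor1 was called (0.68) and Hmg20b and Kdm1a were not (0.25 and 0.20). Of 14 SIN3 complex genes 1 rose, Brms1l (0.57 ± 0.13, adjusted p = 0.0071), and 0 fell, with a median of 0.03. After scaling 0 rose and 4 fell (Sin3b, Ing2, Rbbp4 and Rbbp7), beside 14% of all genes that fell, with a median of -0.21. Rbbp4 and Rbbp7 were counted in this list and not in the NuRD list. Brms1l missed the threshold after scaling (0.34, limma adjusted p = 0.0405).

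Among 7 other histone deacetylases tested, 3 rose and 1 fell. Hdac11, the class IV enzyme, was at 29.7 RPKM in hypothyroid and 9.07 RPKM in hyperthyroid WT mice (-1.71 ± 0.11, adjusted p = 9.4e-06), and the class IIa enzyme Hdac5 and the class I enzyme Hdac8 increased from 7.59 to 13.2 RPKM (0.79 ± 0.12, adjusted p = 0.00066) and from 1.49 to 2.51 RPKM (0.71 ± 0.12, adjusted p = 0.0015). These 3 kept their calls after scaling. Of 7 receptors that recruit NCoR 2 rose, the TR partners Rxra (88.98 to 124.8 RPKM, 0.49 ± 0.080, adjusted p = 0.0012) and Rxrb (10.9 to 16.1 RPKM, 0.55 ± 0.12, adjusted p = 0.0047), and 0 after scaling, where they had 0.25 and 0.31. In L-NCOR1ΔID against hypothyroid WT mice 0 genes of these 6 lists passed the threshold by limma, beside 0.725% of all genes higher and 0.544% lower. At an unadjusted p below 0.05 there were 9 of 50 tested, beside 20.5% of all genes.

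**Figure D4:**
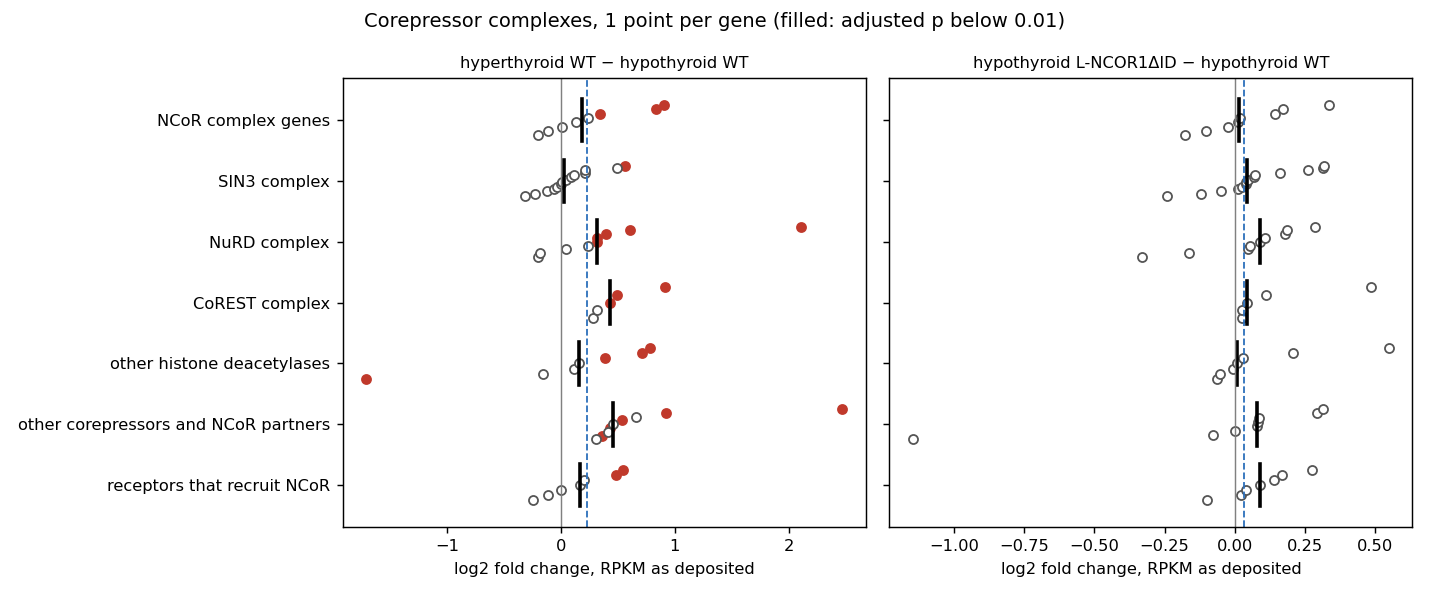
The x axis gives the log2 fold change from RPKM as deposited, after T3 (left) and in L-NCOR1ΔID mice (right), with 1 point per gene, a black line at the median of each list and a dashed line at the median of all genes tested. Filled points, with an adjusted p below 0.01, occur in all lists after T3 and in none in L-NCOR1ΔID mice.

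Against L-NCOR1ΔID mice, 11 of the 51 genes tested in these lists were higher and 2 lower in hyperthyroid WT mice, and after scaling 6 were higher and 5 lower, beside the 15.5% and 5.7%, and 7.51% and 9.19%, of all genes given above. As deposited, hyperthyroid WT mice had higher levels of 1 SIN3 gene (Brms1l, 0.69 ± 0.15), 2 NuRD genes (Chd3, 1.82 ± 0.15, and Gatad2a, 0.77 ± 0.090), 2 CoREST genes (Rcor1, 0.89 ± 0.14, and Hmg20b, 0.47 ± 0.10), 2 other deacetylases (Hdac8, 0.68 ± 0.12, and Hdac6, 0.44 ± 0.083), 3 other corepressors (among them Kdm4a, 0.84 ± 0.15, and Ctbp1, 0.35 ± 0.072) and 1 receptor (Rxra, 0.59 ± 0.087). Mbd2, a NuRD subunit that binds methylated DNA, and Hdac11 were lower, by -0.39 ± 0.071 and -1.64 ± 0.14 on the log2 scale. Of the genes named here, Brms1l, Hmg20b, Hdac6, Ctbp1 and Rxra lost their calls after scaling, which brought lower calls for Sin3b (-0.41, limma adjusted p = 0.00365), Rbbp7 (-0.34, adjusted p = 0.00876) and Rara (-0.58, adjusted p = 0.00877), 3 genes named here after their values were seen.

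The genes whose pattern over the 12 libraries was most like that of each member were sought among 10663 genes with a mean of 1 RPKM or more, by the root mean square difference of log2 values after each gene's mean was subtracted. For Hdac2 these were Zfp35 and Chtop (differences of 0.0468 and 0.0483), for Gps2 Vps51 and Ring1 (0.05 and 0.0860), for Ncor1 Slc39a9 and Mcmbp (0.0529 and 0.0665) and for Hdac3 Tubgcp6 and Fbxl4 (0.0587 and 0.0651). Tbl1x was most like Zc3h14 and Snap23 (0.0894 and 0.0937) and Hdac1 most like Mrpl48 and Sap18 (0.131 and 0.134). Tbl1xr1 was most like Tmem87b and Jam2 (0.121 and 0.131) and Nrip1 most like Lemd3 and Il6st (0.163 and 0.164), and no other member was among these 16 genes. Tmem87b, the closest to Tbl1xr1, had 6.86 ± 0.356, 12.9 ± 2.90 and 8.11 ± 0.578 RPKM in hypothyroid WT, hyperthyroid WT and L-NCOR1ΔID mice.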

How the data were processed

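RNA from 12 livers was analysed. The authors aligned reads to mm9 with STAR, quantified RefSeq transcripts with HOMER from uniquely aligned reads and deposited RPKM values, and deposited the start and end of merged H3K9Ac and H3K27Ac regions, which carry no signal. Reads that fit a paralogue or pseudogene equally well therefore do not enter the values. Strandedness is not given in the sources used here. The authors' DESeq2 results were not used. Samples were grouped by the labels.

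RPKM is not a count, so log2(RPKM + 0.1) was fitted with limma 3.58.1 (R 4.3.3), with a trend in the variance, and p-values were adjusted over all genes tested (Benjamini-Hochberg). Only the 2 groups compared entered a fit. A gene was tested where 4 or more libraries reached 0.1 RPKM, and was called at an adjusted p below 0.01. Fold changes are on the log2(RPKM + 0.1) scale and understate low genes. Ratios were tested with two-sided exact permutation tests. The sources do not say which mice shared a litter or cage, so p-values measure the spread between these mice. Of 31370 rows, 1 without a gene name (at most 0.00079% of summed RPKM) was left out, and 0 columns were unused. Depth was taken from steps between low values, where 64.4% to 69.5% of the values came out whole within 0.06 reads, so a count test was not run. Starts come from GENCODE M1, on mm9, as the start shared by most coding transcripts. The members, lists and tests were chosen with earlier results of these data known. The named genes are all 8 members, up to 3 called genes per list and comparison with the largest change and at least 1 RPKM, the 2 genes most like each member in pattern, and Thrsp. Alternatives were other pseudocounts, filters, thresholds and transcripts, 1 fit of all libraries, no trend, a replicate block, median-ratio scaling and omission of each library. The code was tested on simulated data. Python 3.11.15, numpy 2.4.6, pandas 2.3.3, scipy 1.17.1 and matplotlib 3.10.9 were used. Values of some single genes are left out.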

Additional observations from a re-analysis of the deposited data

Results flagged for a closer look

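Gps2 in hyperthyroid WT replicate 1, at 8.285 RPKM, stood apart from the other 3 mice of its group, which had 9.74 to 10.002 RPKM. The gap to the nearest mouse was 0.847 of the group's range, above Dixon's 95% critical value for 4 values. This was 1 of 24 groups of 4 examined, and chance flags about 1 in 20. Without this mouse the T3 fold change of Gps2 still missed the threshold.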

How the results depend on the processing

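After T3, 3 of 8 members passed the threshold, and 2 or 3 did so under 10 of the 11 alternatives that kept all libraries. With a log2 fold change above 1 required as well, 0 passed. Median-ratio scaling gave 2 calls, of which Tbl1xr1 was shared, and turned the direction of Ncor1 (-0.11) and Hdac1 (-0.22), neither of which was called. Without 1 library 1 to 3 members were called. In L-NCOR1ΔID mice 0 members were called under every alternative, and scaling turned Hdac1 (-0.0239) and Hdac2 (-0.0171). Over all genes the test of the mutant called 100 upward and 75 downward, against 21 and 22 without a filter, 20 and 25 with the replicate block, 63 and 57 without a trend and 139 and 118 with all libraries in 1 fit.

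Between hyperthyroid WT and L-NCOR1ΔID mice 1 member was called, 2 with all libraries in 1 fit and 4 at an adjusted p below 0.05. There were 0 with a pseudocount of 1, without a trend, after scaling, with the replicate block or with a log2 fold change above 1, and 0 to 1 without 1 library. Scaling turned Gps2 (-0.13), and a pseudocount of 1 turned Hdac1 (0.0036). The cause was not tested.

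Small differences changed sign with 1 library left out. After T3 they ranged from -0.0837 to 0.1504 for Hdac1, from -0.0199 to 0.157 for the log2 ratio of Gps2 to Ncor1 and from -0.0007 to 0.0017 for that of NM_011308 to NM_001252313. In L-NCOR1ΔID mice they ranged from -0.0665 to 0.0508 for Hdac1, -0.0170 to 0.0508 for Hdac2, -0.0630 to 0.0366 for Tbl1x and -0.117 to 0.0474 for Hdac1 to Hdac2. In hyperthyroid WT against L-NCOR1ΔID mice they ranged from -0.0487 to 0.0296 for Hdac3, -0.0954 to 0.139 for Hdac1 and -0.0058 to 0.184 for Gps2. The ratios had 0 adjusted p below 0.05 under every alternative. This was nearly fixed in advance, since the smallest exact permutation p, 0.0286, could pass after adjustment only if most ratio comparisons reached it. No conclusion is drawn from it. Same-numbered mice did not deviate together in all pairs (correlations of -0.207 to 0.267), so the numbers were not taken as pairs. With the replicate block Nrip1 lost its call after T3 (limma adjusted p = 0.0119) and Hdac2 lost its call against L-NCOR1ΔID mice (adjusted p = 0.0425). No ratio, that of Tbl1x to Tbl1xr1 included, could pass with the block, since 4 sign flips allow no p below the threshold.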
